A study of Homo sapiens with 6 samples.

Results

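ADAM, ADAMTS and ADAMTSL genes were examined in U251 cells, a human glioma line, that stably overexpressed either PARK2, which codes for the ubiquitin ligase parkin, or GFP as the control. The genes were taken by symbol: every gene whose symbol in the platform annotation is ADAM, ADAMTS or ADAMTSL followed by a number alone. This gave 43 of the 19775 genes with a probe set of their own, 20 ADAM, 18 ADAMTS and 5 ADAMTSL genes, read by 105 probe sets. RNA of each line was measured on 3 Affymetrix arrays, 6 in all. Both lines had been infected with viral particles and kept under puromycin selection, so the control cells carry a vector and have been through the same selection. The titles call the 3 arrays of a line biological replicates. The labels do not say whether a line is 1 clone or a pool, nor whether its 3 arrays came from separate cultures. The p-values come from limma, which weighs a gene's own scatter within groups (4 degrees of freedom) with that expected from all genes at its intensity (60.8). Each p-value thus rests mainly on a scatter pooled over genes, and that scatter may be technical. In extracts of whole cultures, a gene lower in every cell and a gene lost from a share of the cells cannot be told apart.

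ADAM proteins are membrane-anchored relatives of snake venom metalloproteases. Those with a working zinc site cut the outer part of other membrane proteins, such as Notch, cadherins and EGF-family ligands, off the cell surface, while others have lost the site and act as adhesion receptors. ADAMTS proteins are secreted, carry thrombospondin type 1 repeats, and cut proteins of the extracellular matrix, among them the hyaluronan-binding proteoglycans that fill the brain's matrix. ADAMTSL proteins resemble ADAMTS proteins without the protease domain and bind fibrillin microfibrils and other matrix proteins.

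In PARK2 cells the secreted protease genes ADAMTS1 and ADAMTS5, the matrix gene ADAMTSL1 and the membrane genes ADAM12 and ADAM23 were higher, and ADAMTS15, ADAM19 and ADAM10 were lower. These 8 were the genes past the threshold, an adjusted p under 0.05 by limma with Benjamini-Hochberg adjustment over all 13720 genes tested. The values are linear intensities in the arrays' own units, and log2 fold changes are on log2(intensity + 16), which understates the change of dim genes. Each gene is represented by its brightest probe set. Of the 43 genes, 30 passed a filter on dim probe sets and were tested. The 8 past the threshold are close to the share among all genes tested, where 28.8% were past it (13.3% higher, 15.6% lower). Changes of 2-fold or more past the threshold were found in 7 of the 30, against 5.59% of all genes tested. The 7 include ADAMTS5, which passed the filter through its PARK2 arrays and so had to differ. Since the genes were chosen with earlier results of these data known, this share can not be read as an excess. The median log2 fold change was -0.09 over the 30 and -0.0026 over all genes tested. The directions of the 8 held under quantile normalization and median centring of the arrays as well as on the values as deposited.

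**Figure D1:**
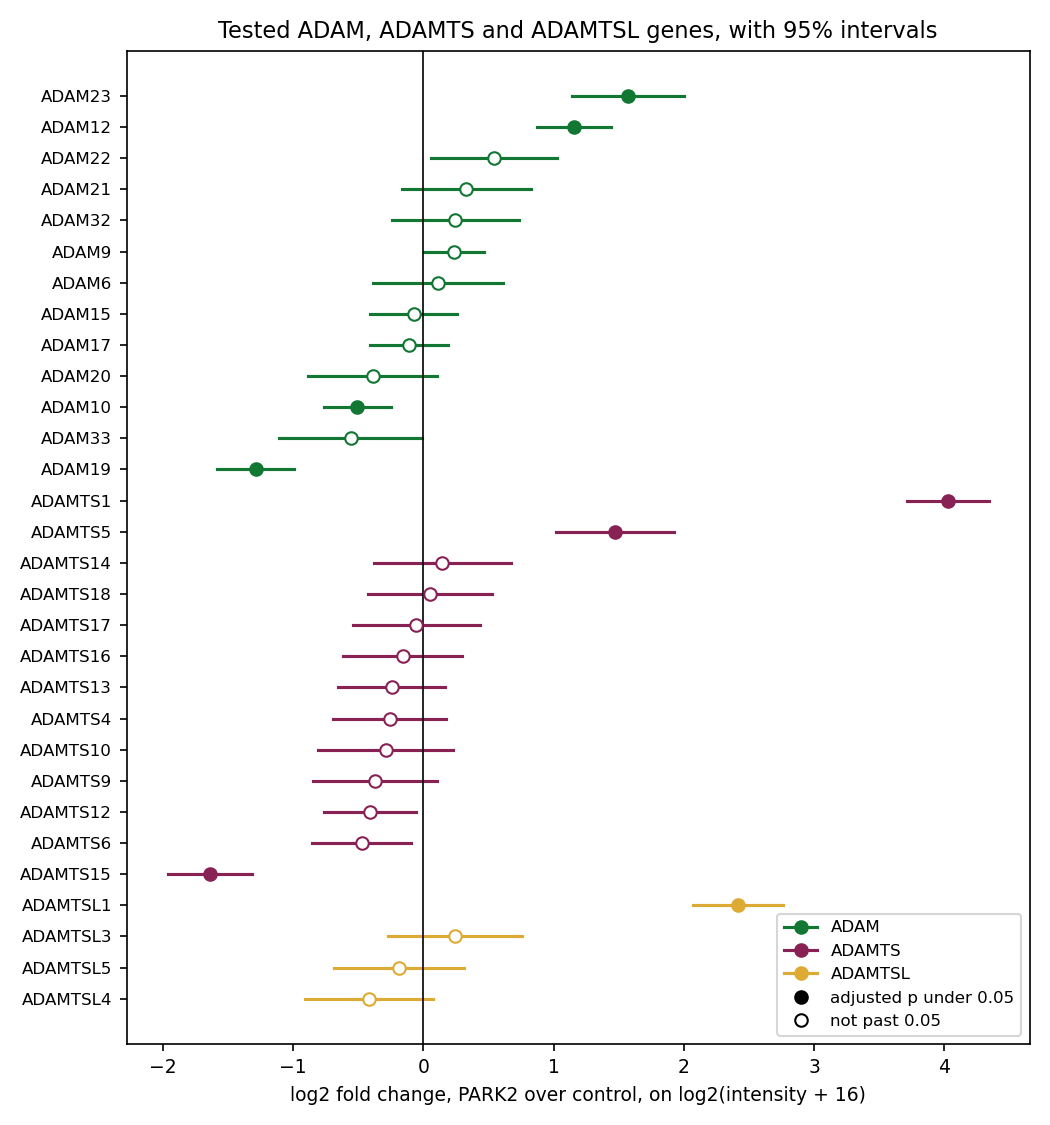
Log2 fold change of PARK2 over control cells for the 30 tested genes, with 95% intervals from limma that are not adjusted for the number of genes, coloured by family and filled where the adjusted p was under 0.05. ADAMTS1 at 4.03 and ADAMTS15 at -1.64 are the ends of the range.

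ADAMTS genes ranged from the highest rise to the deepest fall of the 30 tested. Of 18 genes 13 were tested, 2 rose (ADAMTS1 and ADAMTS5) and 1 fell (ADAMTS15), and the median log2 fold change was -0.24. ADAMTS1 codes for a secreted protease that cuts versican and aggrecan and has antiangiogenic activity. Its intensities were 79.0, 73.5 and 59.6 on the control arrays and 1276, 1498 and 1406 on the PARK2 arrays. The lowest PARK2 array lay far above the highest control array. The mean was 70.7 ± 10.0 (SD, n = 3) in control and 1394 ± 111 in PARK2 cells, 16.3-fold higher on the pseudocount scale (log2 4.03, SE 0.16, limma's adjusted p 1.7e-32). The size of that p depends on the variance model: limma's adjusted p was 1.5e-10 without the variance trend and 2.2e-08 with no filter. A dimmer probe set of the gene had means of 10.99 and 122.9 and rose by 2.38. Both probe sets are marked _s_at, meaning that the probes may match more than 1 transcript.

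ADAMTS5, an aggrecan- and versican-cutting protease, lies next to ADAMTS1 on chromosome 21 among the genes tested. It was listed at 7.40, 5.70 and 5.17 in control cells and at 49.0, 31.4 and 58.3 in PARK2 cells. The control values lie under 9.87, the lowest mean intensity that the filter allowed, so ADAMTS5 passed the filter through its PARK2 arrays and had to differ. The log2 fold change came to 1.47 (limma, SE 0.23, adjusted p 3.4e-07) and depends on the pseudocount, at 2.70 with 1 and 0.65 with 64 in place of 16. Its other probe sets past the filter were at 1.17 and 1.11. Their control means, 4.65 and 3.64, were under the floor too, so they also had to differ and are no check.

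ADAMTS15, a further protease of the group that cuts versican and aggrecan, went the other way. Its intensities were 609, 491 and 409 on the control arrays and 141, 147 and 159 on the PARK2 arrays, and the groups did not overlap. The mean was 503 ± 100.4 in control and 149 ± 9.23 in PARK2 cells, which is 3.11-fold lower at a log2 fold change of -1.64 (limma, SE 0.16, adjusted p 4.0e-13). The control arrays were spread more widely than the PARK2 arrays, and the lowest control array was still above the highest PARK2 array.

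The other 10 tested ADAMTS genes did not pass. ADAMTS6, which acts on fibrillin microfibrils, came nearest, with 76.5, 76.2 and 57.7 in control and 49.0, 42.9 and 45.5 in PARK2 cells. The groups did not overlap, and the log2 fold change came to -0.47 (limma, SE 0.19, adjusted p 0.053). ADAMTS6 passed in 9 of 18 alternatives, quantile normalization and median centring among them (adjusted p 0.023 and 0.020), and without control replicate 3 (0.018). A second probe set of ADAMTS6, at -0.73, had a PARK2 mean of 5.29, under the floor, so it passed the filter through its control arrays and is no check. ADAMTS12, a matrix protease, had means of 123 ± 20.4 and 88.4 ± 8.67 in control and PARK2 cells (-0.41, adjusted p 0.074, and 0.027 under quantile normalization). It passed in 3 of 18 alternatives and was at -0.22 (adjusted p 0.34) as the mean of its probe sets. A second, dimmer probe set of ADAMTS12, with both means above the floor, was at -0.027 (adjusted p 0.96 over all probe sets). ADAMTS4, another protease of aggrecan and versican, was at 32.8 ± 6.84 and 25.0 ± 7.77 (-0.26, adjusted p 0.43), and its groups overlapped. For ADAMTS4 the 95% interval of the log2 fold change, -0.69 to 0.18, leaves room for a change either way.

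ADAMTS13, which cuts von Willebrand factor, was at -0.24 (adjusted p 0.43). ADAMTS9 (-0.37), ADAMTS10 (-0.29), ADAMTS14 (0.15), ADAMTS16 (-0.16), ADAMTS17 (-0.05) and ADAMTS18 (0.05) had mean intensities of at most 22.4 in either group, and their adjusted p-values ran from 0.27 to 0.91. ADAMTS2, ADAMTS3, ADAMTS8, ADAMTS19 and ADAMTS20 were under the filter, with brightest probe sets between 0.088 and 14.0 on single arrays. ADAMTS2, ADAMTS3 and ADAMTS14 code for the proteases that trim procollagens. At these levels the number of arrays and the dim signal allow no statement on a change.

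**Figure D2:**
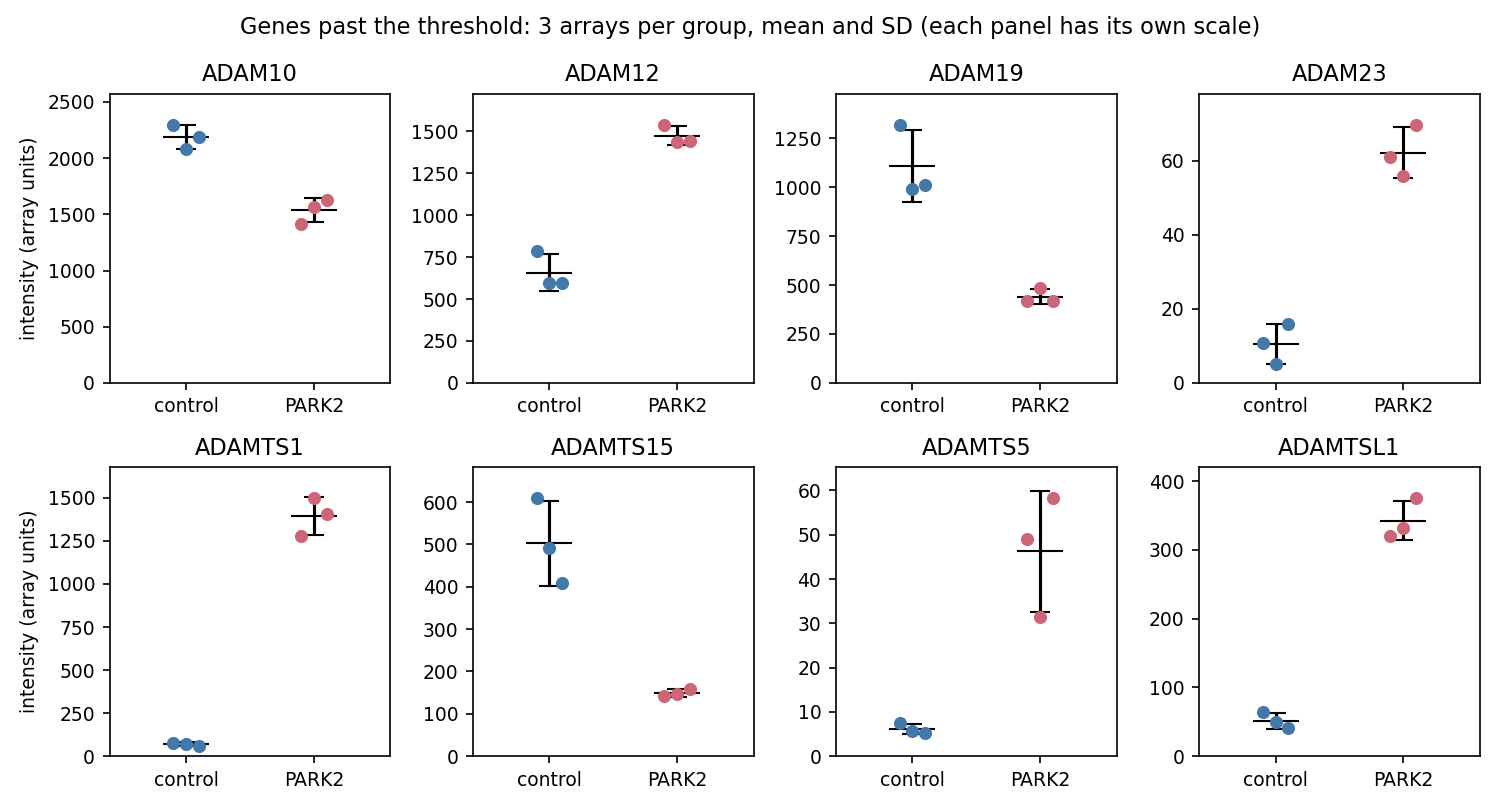
Intensity of the 8 genes past the threshold on each of the 3 control and 3 PARK2 arrays (points), with the mean (wide bar) and SD (error bar); the vertical axes start at 0 and differ between panels. In every panel the 3 control arrays lie apart from the 3 PARK2 arrays.

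The ADAM genes split evenly between higher and lower. Of 20 genes 13 were tested, 2 rose (ADAM12 and ADAM23) and 2 fell (ADAM19 and ADAM10), and the median of the 13 was 0.11 on the log2 scale. The groups did not overlap for 7 of the 13, against 39.5% of all genes tested. Among the 7 is ADAM21, whose control mean of 7.79 lay under the filter's floor, so its direction was fixed. The related proteases ADAM12 (meltrin alpha) and ADAM19 (meltrin beta) changed in opposite directions. ADAM12 sheds heparin-binding EGF and cuts insulin-like growth factor binding proteins. It was at 783, 595 and 593 on the control arrays and at 1538, 1439 and 1440.3 on the PARK2 arrays. All 3 PARK2 arrays were above all 3 control arrays, and the log2 fold change came to 1.16 (limma, SE 0.14, adjusted p 6.5e-10). ADAM19, known for cutting neuregulin, was at 1318, 992 and 1009 on the control arrays and at 419, 487 and 418 on the PARK2 arrays. The groups lay far apart, and the log2 fold change came to -1.29 (limma, SE 0.15, adjusted p 8.2e-11). In both genes control replicate 1 was the brightest control array. Without it the log2 fold changes were 1.29 for ADAM12 and -1.16 for ADAM19.

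The 250 bases before the start of ADAM12 (chr10:126388478-126388727, minus strand) and of ADAM19 (chr5:157575776-157576025, minus strand) are shown because these relatives moved in opposite directions. They are from RefSeq on GRCh38.p14, written 5′ to 3′ along the gene's strand, with capitals for matches to any of 4 motifs on either strand: the TATA box with the letters TATAAA, the GC box with the letters GGGCGG, the CCAAT box with the letters CCAAT, and the AP-1 motif with the letters TGANTCA.
ADAM12: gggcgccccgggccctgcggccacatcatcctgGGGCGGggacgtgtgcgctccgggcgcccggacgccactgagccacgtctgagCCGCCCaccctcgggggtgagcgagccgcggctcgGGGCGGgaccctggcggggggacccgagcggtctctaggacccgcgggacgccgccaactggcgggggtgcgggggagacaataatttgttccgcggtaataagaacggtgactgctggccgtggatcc
ADAM19: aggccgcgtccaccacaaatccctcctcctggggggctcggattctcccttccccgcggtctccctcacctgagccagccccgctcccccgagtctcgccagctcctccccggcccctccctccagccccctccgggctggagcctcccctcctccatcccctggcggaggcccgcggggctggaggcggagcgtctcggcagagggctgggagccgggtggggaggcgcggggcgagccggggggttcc
The ADAM12 window held 3 GC boxes, and none of the other letters searched. The ADAM19 window held 0 matches to the 4 motifs. Among 27305 promoter windows of this length, 42.3% held a GC box, 33.0% a CCAAT box, 11.1% a TATA box and 6.6% an AP-1 motif. Both windows were rich in CG pairs, 31 in ADAM12 and 21 in ADAM19, against a median of 11. The promoter table held 27 of the 43 genes, 5 of the 8 past the threshold among them.

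ADAM10 and ADAM17 code for the main sheddases of Notch, cadherins, the amyloid precursor protein and EGF-family ligands. ADAM10 was at 2295, 2083 and 2184 on the control arrays and at 1417, 1568 and 1630.3 on the PARK2 arrays. Every PARK2 array was below every control array, and the log2 fold change came to -0.50 (limma, SE 0.13, adjusted p 0.0016). A second probe set fell by 0.86 (adjusted p 0.0014 over all probe sets), and the third, at -0.50, did not pass (0.159). The neighbours of ADAM10 on chromosome 15 were low too. Of the 20 nearest tested genes, 10 on either side, 8 were lower and 1 was higher, against 15.6% lower and 13.3% higher of all genes tested. The median log2 fold change of these neighbours was -0.31. With the neighbours' shift taken off each array, ADAM10 was at -0.11 (adjusted p 0.40), so its fall was not called relative to its neighbourhood. What moved the neighbours was not tested.

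ADAM17, the TNF-alpha converting enzyme, was at 898, 711 and 614 in control and at 667, 677 and 689 in PARK2 cells. The PARK2 arrays all lay within the control range, and the log2 fold change came to -0.11 (limma, SE 0.15, adjusted p 0.66, 95% interval -0.41 to 0.19). Its other probe sets were at -0.36 and -0.28 and did not pass either. ADAM9, a widely expressed sheddase, was at 4563, 3932 and 4125 in control and at 4805, 4809 and 5252 in PARK2 cells. Its groups did not overlap, but the log2 fold change of 0.24 did not pass on the values as deposited (SE 0.12, adjusted p 0.12). It passed in 4 of 18 alternatives: quantile normalization (0.29, adjusted p 0.0016), median centring (0.25, 0.016), array weights, and without control replicate 1 (0.30, 0.0056). It was at 0.12 (adjusted p 0.66) as the mean of probe sets and at 0.083 (0.45) relative to its neighbours. The other probe sets of ADAM9 past the filter, at 0.34 and -0.21, differed in sign and did not pass. ADAM15, a protease with an integrin-binding motif, was at 148 ± 10.3 and 140 ± 7.78 (-0.07, adjusted p 0.81), and its groups overlapped.

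ADAM23, ADAM22 and ADAM11 are receptors of neurons without protease activity that bind the secreted LGI proteins. ADAM23 rose from 10.9, 5.06 and 15.8 on the control arrays to 61.0, 55.9 and 69.7 on the PARK2 arrays. The groups lay apart, with a log2 fold change of 1.57 (limma, SE 0.22, adjusted p 1.6e-08), or 2.56 and 0.76 with pseudocounts of 1 and 64. Its other 2 probe sets past the filter were both at 1.30. Their control means, 6.38 and 5.62, lay under the filter's floor, so they had to differ and are no check. ADAM22 was at 17.8, 1.71 and 17.3 in control and at 24.9, 24.7 and 21.2 in PARK2 cells, with control replicate 2 far below the other control arrays. The ADAM22 log2 fold change did not pass (0.54, SE 0.24, adjusted p 0.0851) and was at 0.24 without that array. Its probe sets disagreed. Another one, with a control mean of 7.56 under the floor, was at 0.78, and it became the brightest and passed when control replicate 3 was left out (0.71, adjusted p 0.0287). A further one, with both means above the floor, was at -0.08. ADAM11 was under the filter, as were the ligand genes LGI1, LGI2, LGI3 and LGI4. In the same arrays the neuronal synapse genes SYT1 (13.7 ± 3.90 to 151.8 ± 12.5) and SNAP25 (14.6 ± 1.21 to 58.7 ± 18.7) rose by 2.50 and 1.26 on the log2 scale. They belong to a list of 12 measured markers of cells that should be absent from the line. Of 6 tested, these 2 rose and KRT18 fell (208 ± 50.9 to 85.9 ± 7.21), 50% against 28.8% of all genes tested. MBP (means of 78.8 in control and 62.3 in PARK2 cells), PECAM1 and CD3E did not pass. The other 6 were under the filter, PTPRC, CD14, EPCAM and KRT5 among these. The summed intensity of the list ran from 364 to 412 on the control arrays and from 386 to 504 on the PARK2 arrays. In that sum the fall of KRT18 and the rise of SYT1 partly cancel. The part of these markers in the ADAM23 result was not tested.

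The 250 bases before the start of ADAM23 (chr2:206443282-206443531, plus strand) and of ADAMTSL1 (chr9:18473903-18474152, plus strand), both genes that rose by over 2-fold, differ in composition. Capitals mark the same 4 motifs, from the same RefSeq table and build.
ADAM23: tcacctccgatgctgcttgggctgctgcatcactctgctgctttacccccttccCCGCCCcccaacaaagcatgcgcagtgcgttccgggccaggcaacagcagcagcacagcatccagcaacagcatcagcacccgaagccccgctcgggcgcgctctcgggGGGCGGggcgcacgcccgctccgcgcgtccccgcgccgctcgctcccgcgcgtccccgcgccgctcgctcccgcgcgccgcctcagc
ADAMTSL1: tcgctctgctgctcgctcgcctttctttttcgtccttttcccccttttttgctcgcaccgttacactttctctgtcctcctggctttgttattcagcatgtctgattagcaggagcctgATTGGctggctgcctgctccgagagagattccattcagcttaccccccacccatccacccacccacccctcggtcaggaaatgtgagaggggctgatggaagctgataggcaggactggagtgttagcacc
The ADAM23 window held 33 CG pairs and 2 GC boxes. The ADAMTSL1 window held 8 CG pairs and 1 CCAAT box, which lies on the opposite strand. Neither held a TATA box or an AP-1 motif by these letters.

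The remaining ADAM genes were dim. ADAM33, linked to airway disease, was at 13.3, 5.22 and 59.1 in control and at 7.58, 12.0 and 6.21 in PARK2 cells, so that control replicate 3 alone stood out. The PARK2 mean of ADAM33, 8.59, lay under the filter's floor, so the gene passed the filter through its control arrays and its direction was fixed. Its log2 fold change of -0.56 did not pass (adjusted p 0.12). It did pass without control replicate 2 (-0.94, adjusted p 0.0038), which is no check for the same reason. ADAM20 (-0.39), ADAM21 (0.33) and ADAM32 (0.25), genes known mainly from testis, and the pseudogene ADAM6 (0.11) had adjusted p-values from 0.27 to 0.80 and group means of at most 13.8. The PARK2 mean of ADAM20 (6.88) and the control means of ADAM21 (7.79), ADAM32 (8.56) and ADAM6 (9.48) lay under the filter's floor. The directions of these genes were therefore fixed by the filter too. ADAM8, a protease of myeloid cells, was under the filter, with no array above 15.02. ADAM2, ADAM5, ADAM18, ADAM28 and ADAM30 were also under the filter, and none of the 13 genes under it passed when the filter was dropped.

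ADAMTSL1 (punctin), a secreted matrix protein, was the 1 ADAMTSL gene past the threshold. Its intensities were 64.5, 49.2 and 41.4 on the control arrays and 321, 332 and 375 on the PARK2 arrays. The groups did not overlap, and the means were 51.7 ± 11.8 and 343 ± 28.8, with a log2 fold change of 2.42 (limma, SE 0.17, adjusted p 3.9e-19). As the mean of its 4 probe sets past the filter the rise was 1.599, and each of the 4 rose on its own. ADAMTSL4, a fibrillin-binding protein of the fibres that hold the eye's lens, was at 13.6, 21.3 and 15.03 in control and 12.5, 2.498 and 11.2 in PARK2 cells (-0.42, adjusted p 0.22). ADAMTSL3 (0.24) and ADAMTSL5 (-0.18) had adjusted p-values of 0.55 and 0.66, and ADAMTSL2 was under the filter. The PARK2 mean of ADAMTSL4, 8.74, and the control mean of ADAMTSL3, 7.93, lay under the filter's floor, so their directions were fixed.

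**Figure D3:**
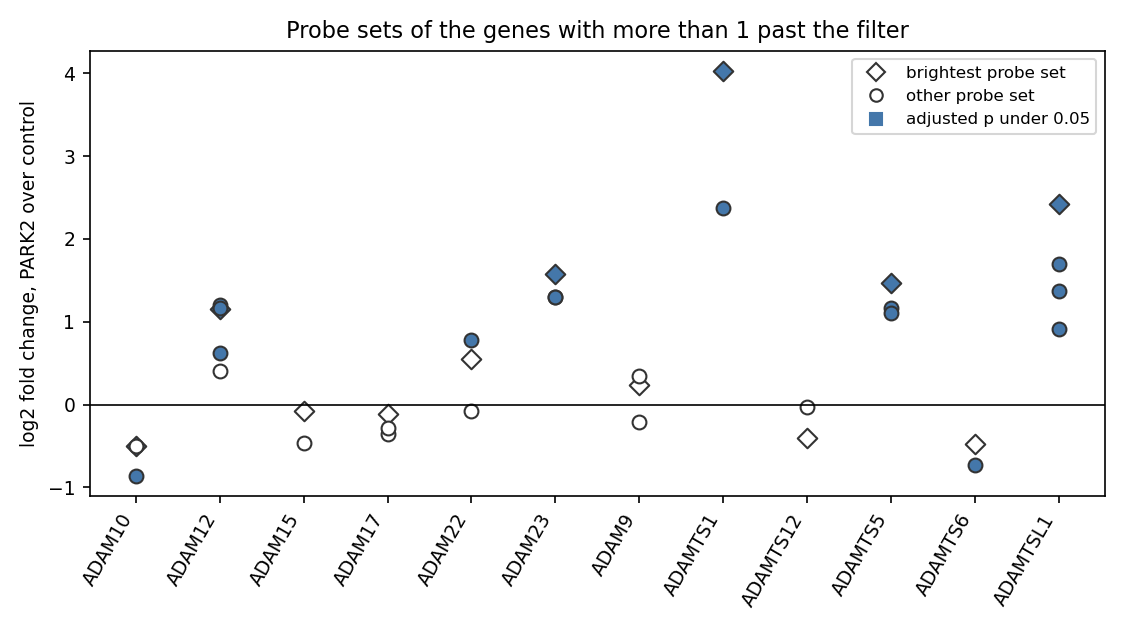
Log2 fold change of PARK2 over control for each probe set past the filter, for the 12 genes with more than 1 of them; diamonds mark the brightest probe set of a gene and blue fill an adjusted p under 0.05 over all probe sets tested singly. All probe sets past the filter of ADAM12, ADAMTS1 and ADAMTSL1 lie above 0. Those of ADAM23 and ADAMTS5 do too, but all except the brightest of ADAM23 had control means under the filter's floor, so their direction was fixed.

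Other probe sets of the same genes served as a check. The genes past the threshold had 14 further probe sets past the filter. For 4 of these, those of ADAMTS5 and ADAM23, the control mean lay under the floor, so their direction was fixed by the filter. The other 10 all had the sign of the brightest one, and 8 of them passed among the 26603 probe sets tested singly, of which 20.4% passed. That share is not a like comparison, since these genes were picked by their brightest probe set on the same arrays. The check covers agreement between probe sets on the same RNA only. For ADAM12, 4 of 5 probe sets rose, with log2 fold changes of 1.16, 1.20, 1.16 and 0.62, and the fifth was at 0.41 (adjusted p 0.29). ADAM19 and ADAMTS15 each rested on 1 probe set, since their second one was under the filter.

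Position along the chromosome was compared with the changes. ADAMTS1 and ADAMTS5 follow each other among the tested genes of chromosome 21, and the tested gene on the other side of ADAMTS1 is APP, the amyloid precursor protein gene (0.49, adjusted p 0.0020). Of the 20 nearest tested genes of ADAMTS1, 5 were higher, ADAMTS5 among them, and 0 lower, and the median of the 20 was 0.087. Among all genes tested 13.3% were higher and 15.6% lower, the shares beside which this count and those below stand. With the neighbours' shift taken off, ADAMTS1 was at 3.88 and ADAMTS5 at 1.32. Of the neighbours of ADAMTSL1 on chromosome 9, 6 of 20 were higher, and ADAMTSL1 stayed at 2.12 after the correction. Of those of ADAMTS15 on chromosome 11, 7 of 20 were lower, and ADAMTS15 stayed at -1.34. Next to ADAM19 the actin-regulator gene CYFIP2 fell as well (-1.44), while the median of the 20 neighbours of ADAM19 was 0.11. After the correction ADAM19 was at -1.31, ADAM12 at 1.09 and ADAM23 at 1.40, so that 7 of the 8 genes kept their call and ADAM10 did not. Of the neighbours of ADAM23 on chromosome 2, 6 were higher and 1 lower.

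**Figure D4:**
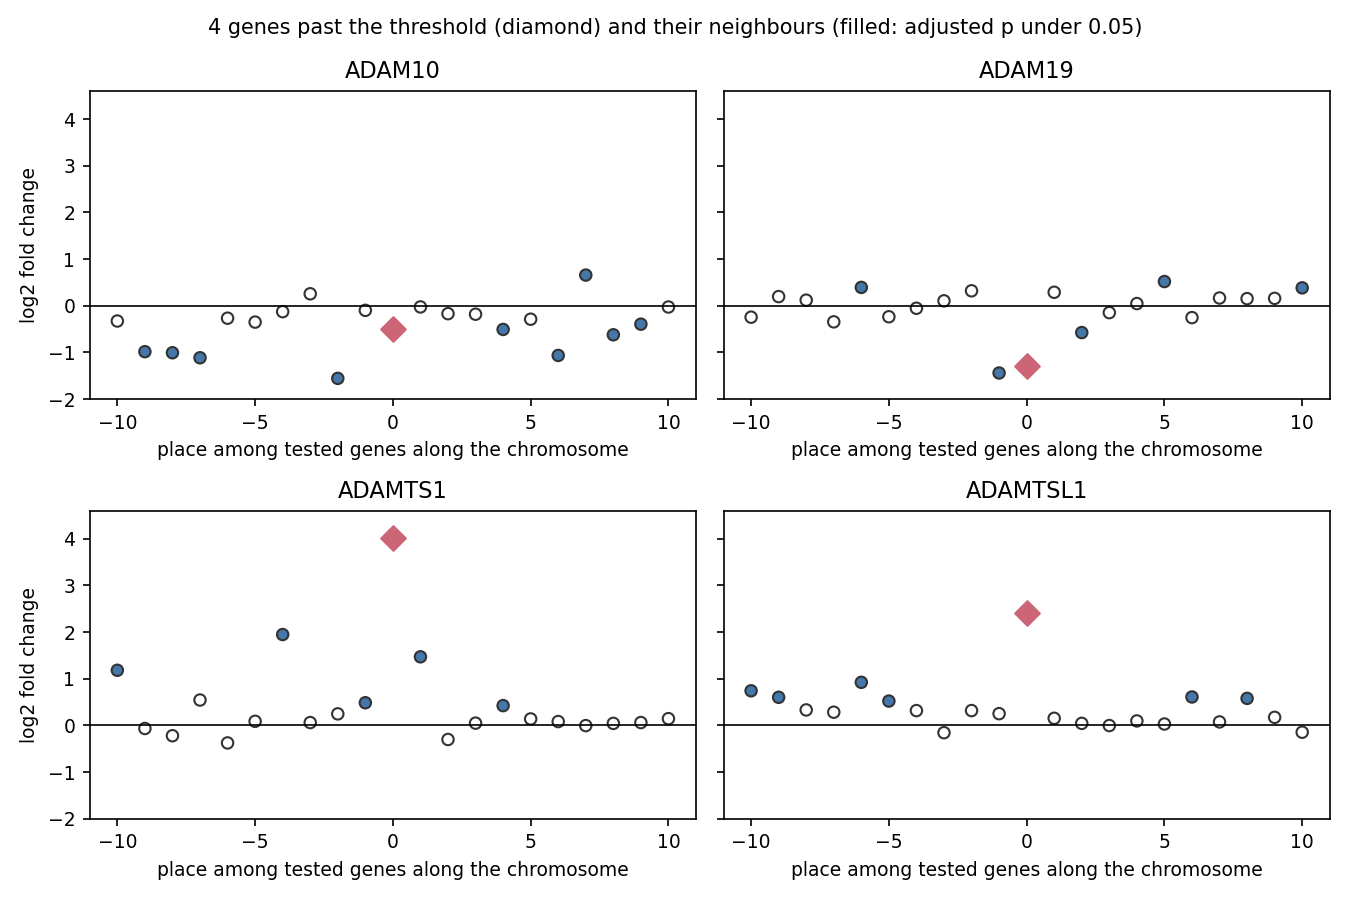
Log2 fold change of ADAM10, ADAM19, ADAMTS1 and ADAMTSL1 (diamonds, at place 0) and of the 10 nearest tested genes on either side, by order along the chromosome; filled points had an adjusted p under 0.05. ADAM10 at -0.50 lies within the spread of its neighbours, and ADAMTS1 at 4.03 and ADAMTSL1 at 2.42 lie above all of theirs.

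Genes that control these proteases moved both ways. Of 29 inhibitors, maturation factors and partners 28 were tested, 5 rose and 8 fell (46.4%, against 28.8% of all genes tested), and the list's median was -0.20. This list and the substrate lists below were chosen with earlier results of these data known. Their shares can therefore not be read as an excess over all genes. TSPAN15, a tetraspanin that carries ADAM10 to the cell surface and directs it to N-cadherin, was at 509, 544 and 504 in control and at 108, 95.6 and 117 in PARK2 cells. The groups lay far apart, with a log2 fold change of -2.13 (limma, SE 0.16, adjusted p 5.3e-18). TSPAN33, another ADAM10 tetraspanin, fell by 1.23, and TSPAN5, named after its values were seen, rose by 0.41 (adjusted p 0.045). The call on the TSPAN5 log2 fold change was lost under several alternatives, such as without control replicate 1, control replicate 2, PARK2 replicate 2 or PARK2 replicate 3 (adjusted p 0.0998 to 0.281). Proprotein convertases remove the prodomains of ADAM and ADAMTS proteases. Among them FURIN fell from 200 ± 27.4 to 93.4 ± 6.997 (-0.97, adjusted p 4.5e-06, and -0.36 relative to its neighbours). PCSK5 rose from 9.34 ± 4.67 to 151 ± 30.6. Its control mean lay under the filter's floor, so it passed through its PARK2 arrays and had to differ, and its log2 fold change, 2.72, depends on the pseudocount (3.98 with 1 and 1.55 with 64).

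Of the tissue inhibitors of metalloproteases, TIMP1 fell from 4173, 2609 and 2725 on the control arrays to 1392, 1340 and 1307 on the PARK2 arrays (-1.19, SE 0.14, limma's adjusted p 8.6e-11). All 3 PARK2 arrays were below the control arrays, and relative to its neighbours TIMP1 was at -0.70. TIMP3, the inhibitor with the widest reach over ADAM and ADAMTS proteases, had means of 169 ± 29.9 and 162 ± 25.7 in control and PARK2 cells (-0.06, adjusted p 0.86), and its groups overlapped. TIMP2 was at -0.29 (adjusted p 0.057) and passed under quantile normalization (-0.24, 0.0052). RECK, a membrane-anchored inhibitor of ADAM10, rose by 0.86 (0.30 as the mean of its probe sets, adjusted p 0.19). FBLN1, a matrix cofactor of ADAMTS1, rose from 62.5 ± 3.75 to 197 ± 32.2 (1.43, adjusted p 4.8e-10). The podosome scaffold SH3PXD2A, a binding partner of ADAM12, ADAM15 and ADAM19, fell by 1.58 on the log2 scale (-0.93 as the mean of its probe sets). Its relative SH3PXD2B, named after its values were seen, rose by 0.68, but was at 0.077 (adjusted p 0.86) without probe sets marked _x_at or _s_at.

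**Figure D5:**
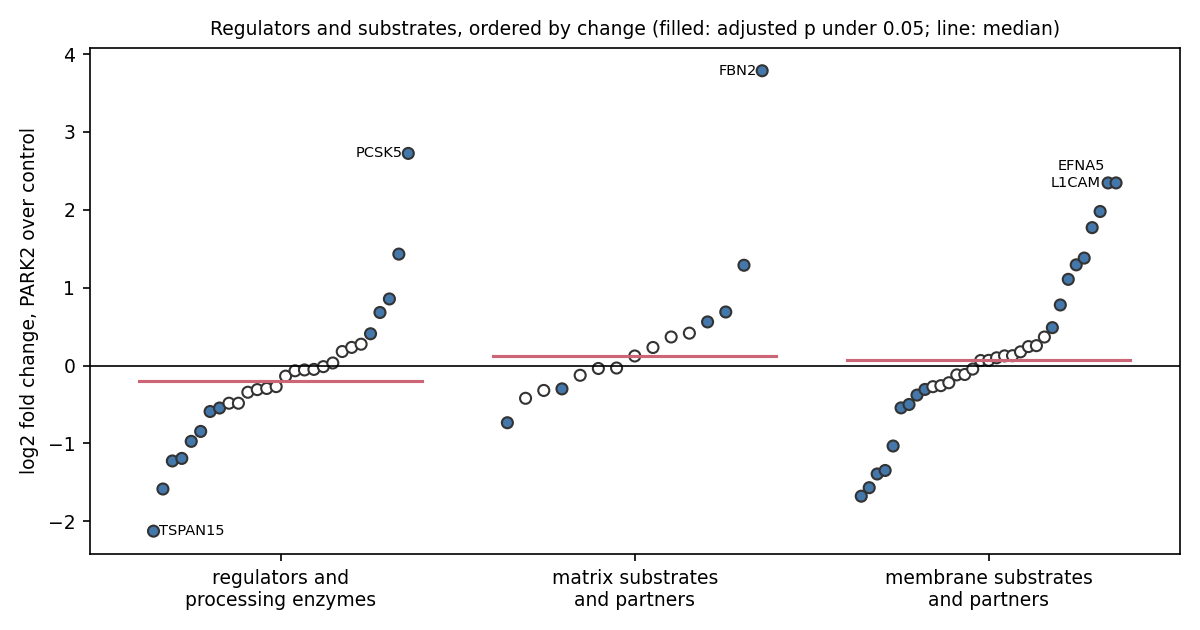
Log2 fold change of PARK2 over control for the tested genes of the 3 lists, ordered by change within each list; blue fill marks an adjusted p under 0.05 and the red line the list's median (-0.20, 0.12 and 0.067). FBN2, PCSK5, L1CAM and EFNA5 lie highest, and TSPAN15 lies lowest.

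Of 22 matrix substrates and partners of ADAMTS and ADAMTSL proteins 15 were tested, 4 rose and 2 fell (40%, against 28.8% of all genes tested), with a median of 0.12. FBN2, the fibrillin of developing microfibrils, was at 7.04, 13.1 and 18.2 in control and at 384, 361 and 382 in PARK2 cells. The groups lay far apart, and the FBN2 log2 fold change came to 3.79 (limma, SE 0.18, adjusted p 9.6e-28), or 2.32 as the mean of its probe sets and 2.52 with a pseudocount of 64. FN1, the fibronectin gene, rose from 996 ± 173 to 2434 ± 51.5 (1.29, adjusted p 3.6e-12), though a probe set left when those marked _x_at or _s_at were dropped did not pass (0.28, adjusted p 0.43). COL1A2, an alpha chain of type I collagen, rose by 0.56 (0.35 relative to its neighbours, 0.91 without probe sets marked _x_at or _s_at), and the syndecan SDC4 rose by 0.69. VCAN, the versican gene, was at 2837, 2571 and 2600.2 in control and at 2289, 2566 and 2486 in PARK2 cells (-0.12, adjusted p 0.52). All PARK2 arrays of VCAN were just below the control arrays, by less than the spread within a group. ACAN, the aggrecan gene, fell by 0.73 from a dim 30.8 (adjusted p 0.010; -1.34 and -0.31 with pseudocounts of 1 and 64) and was at -0.072 relative to its neighbours. The call on the ACAN log2 fold change was lost without PARK2 replicate 2 (-0.56, adjusted p 0.114). THBS1, the thrombospondin 1 gene, fell by 0.30 (adjusted p 0.035), and the call on the THBS1 log2 fold change was lost without control replicate 2 or 3 or PARK2 replicate 1 or 2 (adjusted p 0.0512 to 0.322). Without probe sets marked _x_at or _s_at, THBS1 was read by another probe set, at 0.34 (adjusted p 0.0843).

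Of 43 membrane substrates and partners of ADAM proteins 33 were tested, 9 rose and 9 fell (54.5%, against 28.8% of all genes tested), with a median of 0.067. L1CAM, a neural adhesion molecule shed by ADAM10, was at 140, 86.2 and 112 in control and at 574, 637 and 681 in PARK2 cells. Every PARK2 array was above every control array (log2 fold change 2.35 by limma, SE 0.16, adjusted p 1.9e-19). EFNA5, an ephrin cut by ADAM10, rose from 11.6 ± 3.59 to 124 ± 17.1 (2.35, or 3.34 and 1.31 with pseudocounts of 1 and 64), and the adhesion molecule ALCAM rose by 1.38. The cadherin CDH11 (1.29) and the ligand genes DLL1 (1.98) and BTC (1.77) rose as well, from dim control means of 3.24 and 11.8. That of DLL1 lay under the filter's floor, so it had to differ. With a pseudocount of 64 DLL1 was at 0.87 and BTC at 0.92. The phosphatase gene PTPRZ1 (-1.57) and the neuregulin gene NRG1 (-1.68) fell, NRG1 by only 0.42 as the mean of its probe sets. These 3 lists were described by their counts and medians, and no test of a list was made.

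Array medians ran from 16.2 to 19.3 intensity units. Log2 values correlated more closely within groups (0.989 to 0.992) than between them (0.959 to 0.961). The 3'/5' ratio of the actin controls, a sign of RNA quality, lay between 3.83 and 5.31 on the control arrays and between 3.53 and 5.66 on the PARK2 arrays. The number of genes called higher depended on single arrays, with 2800 without control replicate 1 and 1208 without PARK2 replicate 3, against 1818. Of 12 markers of astrocytes and glioma, 10 passed the filter, and AQP4 and OLIG2 were under it. GFAP (0.53) and SOX2 (0.30) rose, S100B (-1.39) and SLC1A3 (-0.72) fell, and VIM, NES, SOX9, CD44, EGFR and FABP7 did not pass. Their part in the results above was not tested.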

How the data were processed

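RNA of U251 cells was measured on 3 control and 3 PARK2 Affymetrix arrays, grouped by their titles. Each deposited value is a linear intensity for a probe set on an array. The submitters' processing notes list GCOS and MAS5 without saying what each did, in which version or to which scaling target. Probe sets were named through GEO's platform annotation (41091 of 54675 had 1 gene symbol; 62 controls, 1801 with several and 11721 with none were left out). Values were turned into log2(intensity + 16) with no further normalization. Probe sets with a mean under the 40th percentile were dropped (floor 9.87), and the brightest was kept per gene. All 13720 genes were fitted with limma 3.58.1 in R 4.3.3 (lmFit, eBayes with intensity trend; 60.8 prior and 4 residual degrees of freedom), at 0.05 after Benjamini-Hochberg adjustment. On simulated arrays of 13720 genes for this comparison, 53.7% of genes changed by 1.5-fold, 98.5% by 2-fold and 100% by 4-fold were recovered, and 4 unchanged genes passed. The simulation gave genes of like intensity the same SD, with independent noise, and changed few genes. Its figures may therefore be better than those that hold for the real arrays. The neighbour correction took the median deviation of up to 10 tested genes on either side, in RefSeq order, off each array. Every family member could be named; of the other lists, up to 8 called genes with the smallest p per list, and TIMP1, TIMP2, TIMP3 and VCAN; other genes appear as neighbours, markers or LGI ligands, or are said to be named after their values were seen. Array weights used the gene-by-gene method, since REML did not converge. Members and lists were chosen with earlier results of these data known. Detection calls and a check of the transgene were not used here.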

Additional observations from a re-analysis of the deposited data

How the results depend on the processing

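The number of arrays, and signal close to background for the dim genes, limit the precision. Of 18 alternatives, 12 changed the processing and 6 left out 1 array each. The calls of ADAM12, ADAM19, ADAM23, ADAMTS1, ADAMTS5, ADAMTS15 and ADAMTSL1 held under every alternative that tested them, and that of ADAM10 under all but the subtraction of neighbouring genes. Of 492 values of the family genes under alternatives, 455 kept direction and side of the threshold, 23 passed newly, 1 was lost and 13 changed sign, none of these 13 past the threshold.

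The larger relative moves in the counts of genes past the threshold are listed below, and the cause was not tested unless named. Smaller moves are left out of that list. Higher ADAM genes, for example, were 3 under quantile normalization or median centring, and lower regulators 12 under median centring. Membrane substrates ran from 7 to 12 higher and from 6 to 10 lower over the alternatives, against 9 and 9 in the main setting. Higher ADAM genes were 1 with the filter at the 60th percentile, which left fewer genes to test, and 4 with array weights; lower ADAM genes were 1 after subtraction of neighbouring genes. Higher ADAMTS genes were 1 with the 60th percentile filter and 1 without _x_at and _s_at probe sets, which left out both of ADAMTS1. Lower ADAMTS genes were 2 with that filter, pseudocount 64, no variance trend, array weights or the mean of probe sets, 3 with quantile normalization, median centring or neighbouring genes subtracted, and 1 to 2 with an array left out (2 without control replicate 3). Higher ADAMTSL genes were 2 after the subtraction, with ADAMTSL3 at 0.81, and lower ADAMTSL genes 2 with array weights. Higher regulators were 3 as the mean of probe sets and 3 without _x_at and _s_at probe sets, and lower regulators 13 with array weights. Higher matrix substrates were 7 with array weights or the mean of probe sets and 4 to 7 with an array left out (7 without control replicate 1). Lower matrix substrates were 1 with no filter, the 60th percentile filter, no variance trend or the mean of probe sets, 0 without _x_at and _s_at probe sets, and 0 to 2 with an array left out (0 without PARK2 replicate 2).

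Signs changed for values that were not called. The brightest probe set was chosen anew in each setting. With pseudocount 1 ADAM22 was read by another probe set, at -0.16, which was at -0.08 in the main setting. ADAMTS10 was at 0.12 with array weights, and ADAMTS17 and ADAMTS18 at 0.47 and -0.15 after subtraction of neighbours. With an array left out, ADAM17 ran from -0.23 to 0.036, ADAM6 from -0.098 to 0.16, ADAMTS14 from -0.038 to 0.47, ADAMTS16 from -0.27 to 0.033, ADAMTS17 from -0.22 to 0.21, ADAMTS18 from -0.096 to 0.31, ADAMTSL5 from -0.51 to 0.0042 and TIMP3 from -0.19 to 0.045. THBS1, called lower, was at 0.34 without _x_at and _s_at probe sets, where another probe set read it.

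Over all genes, 1818 were higher and 2139 lower in the main setting, 1401 and 1604 with no filter, 2648 and 2550 under quantile normalization, 2576 and 2669 under median centring, 3346 and 2948 with array weights, 2800 and 1812 without control replicate 1, and 1208 and 1784 without PARK2 replicate 3. With the replicate number as a block, 1556 were higher and 1897 lower, and no ADAM, ADAMTS or ADAMTSL gene changed its call, while TIMP2 passed (adjusted p 0.046) and TSPAN5 did not (0.10). Deviations from the group means correlated at 0.168, 0.045 and 0.065 between same-numbered arrays, and from -0.122 to 0.069 between differently numbered ones. Of the 6 arrays, 4 correlated best with their own number. These values are low but lean towards the same number, and the labels name no pairing. The numbers were not used as pairs in the main fit, and whether same-numbered arrays share a batch was not tested.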
